A study of Mus musculus with 4 samples.

Results

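The 9 synapse genes described here were followed through the limb and brain of mouse embryos that had lost the repressor Rest, and of wild type embryos. The 9 genes encode neurexins (Nrxn2 and Nrxn3), neuroligins (Nlgn1, Nlgn2 and Nlgn3), Shank scaffold proteins (Shank1, Shank2 and Shank3) and the cadherin Celsr3. They were taken by symbol: every probe that the scanner files assign to one of these symbols was kept, which gave 13 probes of the 41174 on the array and 9 genes of 27630. The rule uses symbols and no measured value.

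Each of the 4 groups had 1 array and so no replicates. The groups were Rest conditional knockout (CKO) limb, wild type (WT) limb, CKO brain and WT brain, all at embryonic day E13.5 on a mixed background of 129 and C57BL/6. The conditional knockout combined floxed Rest with Cre alleles that doxycycline switches on, and doxycycline between E8.5 and E13.5 is recorded for all 4 samples, WT included. The cell types in which Cre was active, whether the WT embryos carried a floxed or Cre allele, and whether RNA came from 1 embryo or several are not given in the sources used here. Levels are log2 signals relative to the 75th percentile of the same array, so that 0 is that percentile, and differences are CKO minus WT, or brain minus limb. A probe that the scanner software did not call well above background has only an upper bound. Without replicates no p-value exists within a tissue. A gene was called higher or lower where its difference was 2-fold or more, by size alone, and differences are set beside the spread of probes printed 10 times on each array, which is technical only. In whole tissue, fewer cells of a type and less RNA per cell cannot be told apart.

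Neurexins sit on the presynaptic membrane and bind neuroligins across the synaptic cleft, a contact that aligns transmitter release with receptors. Shank proteins are multidomain scaffolds under the membrane of excitatory synapses, where they link receptor complexes to the actin cytoskeleton. Celsr3 is a seven-pass cadherin of the planar cell polarity family that guides axon tracts. REST represses neuronal genes in non-neuronal cells by binding a composite element, RE1, whose 2 blocks are commonly written AGCACC and GGACAG and lie 2 bases apart in the standard form.

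The samples were checked at Rest first. At 3 Rest probes the CKO limb signal was 4.03-fold to 17.2-fold lower than in WT limb. In CKO brain it was 1.88-fold and 11.9-fold lower than in WT brain at 2 probes, and at least 6.60-fold lower at the other. The labels do not name the floxed exons, so a probe may lie outside the deleted part. Between 62.7% and 70.7% of the 43379 spots were well above background on each array. Pan-neuronal markers had a summed level of 726 in CKO brain and 741 in WT brain, in units of each array's 75th percentile, against 59.5 in CKO limb and 43.5 in WT limb. Most of both limb sums came from Syn1 and Uchl1, named after their values were seen. Syn1 read 4.39 in CKO limb and 4.54 in WT limb (log2), and Uchl1 read 3.75 in both. Their limb differences were -0.16 and -0.002, so the limb sums say little of the other markers. Limb mesenchyme markers summed to 379 in CKO limb and 506 in WT limb, and to 39.7 in CKO brain and 21.5 in WT brain. Most of each sum came from the collagen gene Col1a2, named after its values were seen. It read 8.14 in CKO limb, 8.36 in WT limb, 5.14 in CKO brain and 4.07 in WT brain (log2). Col1a1, also named so, had a limb difference of -2.08, while the median limb difference of the list was -0.21.

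Sequence is shown first for the 2 members on which the limb result turns. Celsr3 had the largest limb difference, and its upstream region is given as RefSeq places it, at chr9:108825795-108826044 on the plus strand of GRCm38.p6. The 250 bases before the start site are printed, and the capitals mark the 14 bases nearest to the RE1 blocks.
Celsr3 upstream region: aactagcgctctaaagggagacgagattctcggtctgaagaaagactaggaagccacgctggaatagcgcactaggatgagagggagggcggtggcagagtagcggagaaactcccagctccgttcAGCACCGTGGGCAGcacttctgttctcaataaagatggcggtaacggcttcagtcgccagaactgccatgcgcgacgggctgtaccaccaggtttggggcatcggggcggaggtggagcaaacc
The 14 bases began at position -124 from the start site and differed from the blocks at 1 of the 12 bases compared. Of 32851 RefSeq promoters (250 bases before to 50 after a start), 0.0517% held both blocks exactly at a spacing of 2 bases on either strand, and 0.353% came within 1 mismatch. A further 4 members have an entry in that table, and their nearest windows had more mismatches. They are printed in the direction of the motif, with capitals where a base equals the blocks.
Celsr3 window, 1 mismatch: AGCACCgtGGgCAG
Nrxn3 window, 2 mismatches: AGCAtCtaGaACAG
Nlgn1 window, 3 mismatches: AGtgCCagGGcCAG
Nlgn2 window, 4 mismatches: AGCAgCcgcagCAG
Shank3 window, 4 mismatches: ctCcCCctcGACAG
A window within 2 mismatches was found in 4.46% of all promoters, within 3 in 31.4% and within 4 in 88.4%, so the Nlgn1, Nlgn2 and Shank3 windows are of a kind most or many promoters hold. Windows are given for only some of the non-member synapse genes with a limb difference of 2-fold or more. The fewest mismatches were 4 for Iqsec3, Dlgap3, Lrrc4b, Lrfn5 and Ppfia3, and 3 for Cadm3. Gpr19, whose pattern was most like that of Celsr3, had 3. No window is given for Arc, Cbln1 or the synapse genes called by a bound, so a nearer match among these was not tested. Each window is the nearest over a gene's start sites, 3 for Nrxn3, 2 for Nlgn1, 4 for Gpr19 and 1 for the other genes given. The shares are per promoter, so for a gene with several starts they understate how often such a window is reached. Such a match is a description of letters and not a site or a cause, and functional RE1 elements can lie far outside a promoter.

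Nrxn2 was measured by a pair of overlapping probes that gave unlike limb differences, so both are shown. They lie on chromosome 19 at chr19:6532012-6532071 (A_51_P431831) and chr19:6532047-6532106 (A_51_P431827) on the plus strand of mm9, the build of the array files. The capitals mark the 25 bases that both probes contain.
Nrxn2 A_51_P431831: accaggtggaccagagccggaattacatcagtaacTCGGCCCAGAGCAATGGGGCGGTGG
Nrxn2 A_51_P431827: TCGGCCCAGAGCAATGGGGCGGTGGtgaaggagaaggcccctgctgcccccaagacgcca
The first has a GC content of 60% and the second of 68.3%.

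Among the neurexins, Nrxn2 was abundant in both brains and was higher in CKO limb than in WT limb at both probes. Probe A_51_P431827 read 0.35 in CKO limb and -0.42 in WT limb, and 2.16 in CKO brain and 2.21 in WT brain. The limb difference was 0.77, or 1.71-fold higher in CKO, against a technical SD of 0.079, and the brain difference was -0.05. Probe A_51_P431831 read -0.45 in CKO limb and -3.43 in WT limb, and 2.16 in CKO brain and 2.18 in WT brain. Here the limb difference was 2.98, or 7.87-fold, with a technical SD of 0.13, and the brain difference was -0.03. Both probes therefore put CKO limb above WT limb and below either brain, and they part on the size: only the second passes 2-fold in limb. With the normexp background correction the limb difference of the second was 2.22. The cause of the unlike sizes was not tested. CKO limb reached 27.5% of the WT brain signal at the first probe and 16.1% at the second, whereas WT limb stood at 16.1% and 2.05% at the same probes.

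Nrxn3 was seen in brain alone. Its brighter probe, A_52_P39644 (chr12:91570785-91570844, mm9), read -1.61 in CKO brain and -1.62 in WT brain and was not well above background in either limb. The brain difference of 0.01 lay within the technical SD. At the other probe, A_52_P218458, which spans chr12:90749150-90750418 and therefore crosses an intron, the readings were -3.80 in CKO brain and -3.50 in WT brain, again with both limbs not well above background. The brain signal there was 1.24-fold lower in CKO, a difference of -0.31 against a technical SD of 0.13. No limb difference can be given for Nrxn3. At the brighter probe CKO brain exceeded CKO limb by at least 17.8-fold, and WT brain exceeded WT limb by at least 10.1-fold. With normexp these bounds were 1.93 in CKO and 1.70 in WT on the log2 scale. Nrxn2 thus had a limb signal that differed between genotypes, while that of Nrxn3 was at background in CKO and in WT.

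The neuroligins, the postsynaptic partners of neurexins, were detected in all 4 samples and differed little between genotypes. Nlgn1, found mainly at excitatory synapses, read -3.36 in CKO limb and -3.19 in WT limb, and -0.64 in CKO brain and -0.59 in WT brain, at probe A_52_P258546 (chr3:25330886-25330945). Its limb difference was -0.17 with a technical SD of 0.13, and its brain difference was -0.05. A second Nlgn1 probe, A_52_P497105 (chr3:26030753-26030812), was not well above background on any array. Nlgn2, the neuroligin of inhibitory synapses, read 1.65 in CKO limb and 1.53 in WT limb, and 2.67 in CKO brain and 2.65 in WT brain (chr11:69636993-69637052). The differences were 0.12 in limb and 0.02 in brain. Nlgn3, which occurs at excitatory and inhibitory synapses, read -1.73 in CKO limb and -1.68 in WT limb, and 0.05 in CKO brain and -0.05 in WT brain (chrX:98516457-98516516). In every one of the 3 genes both brains lay above both limbs, and the largest genotype difference was the 1.12-fold lower limb signal of Nlgn1 in CKO.

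The neuroligins differed between tissues. Nlgn1 was 6.59-fold higher in brain than in limb in CKO, and 6.06-fold in WT. For Nlgn3 the brain excess was 3.45-fold in CKO and 3.08-fold in WT, and for Nlgn2 it was 2.02-fold in CKO and 2.17-fold in WT. The CKO value of Nlgn2 drops just under 2-fold, at 0.94 on the log2 scale with quantile normalization and at 0.97 with the percentile over detected probes. For Nlgn1, normexp gave log2 brain excesses of 2.07 in CKO and 1.89 in WT.

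The Shank scaffold genes were at or near background except Shank3, which was flat. Shank3 read -0.17 in CKO limb and -0.18 in WT limb, and -0.18 in CKO brain and -0.28 in WT brain (chr15:89390449-89390508). Its largest difference, 0.10 between CKO brain and WT brain, is close to the technical SD of 0.079, and limb was at the level of brain. Shank1 read -4.37 in CKO limb, -4.39 in CKO brain and -4.97 in WT brain, and was not well above background in WT limb (chr7:51609528-51609587). The CKO signal exceeded the WT signal by at least 1.49-fold in limb and by 1.503-fold in brain. With the normexp correction the limb bound shrank from 0.58 to 0.27 (log2), and the brain difference from 0.59 to 0.06. At this signal both depend on how background is removed. Shank2 passed the background call on the CKO brain array only, at -5.14, and no genotype difference can be given for it (chr7:151606944-151607003).

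Celsr3 was the member with the clearest genotype difference, and it was seen in limb. At probe A_51_P507065 (chr9:108754794-108754853) it read -0.05 in CKO limb and -3.32 in WT limb. In brain it read 0.50 in CKO and 0.03 in WT. WT limb thus stood alone at the low end, and the other 3 samples lay within 0.56 of one another. The limb difference was 3.27, or 9.63-fold, with a technical SD of 0.13, and it ranked 29 from the top among the 16673 genes measured on both limb arrays. The brain difference was 0.47, or 1.38-fold, with a technical SD of 0.079, and ranked 698 among 17087. The limb value exceeded the brain value by 2.80, a gap that could not be tested with 1 array a group.

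The other Celsr3 probe, A_52_P210830 (chr9:108749966-108750025), was dimmer and had the same limb direction. It read -3.23 in CKO limb and was not well above background in WT limb, so that CKO limb was at least 3.29-fold higher. In brain it read -4.21 in CKO and -4.37 in WT, a difference of 0.16. CKO limb was above both brains at this probe, at 220% of the WT brain signal, and CKO brain was 1.97-fold lower than CKO limb. At the brighter probe CKO limb stood at 94.2% of WT brain and WT limb at 9.78%. With the normexp correction the limb difference was 2.52 at the brighter probe and at least 0.96, just under 2-fold, at the dimmer one.

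**Figure D1:**
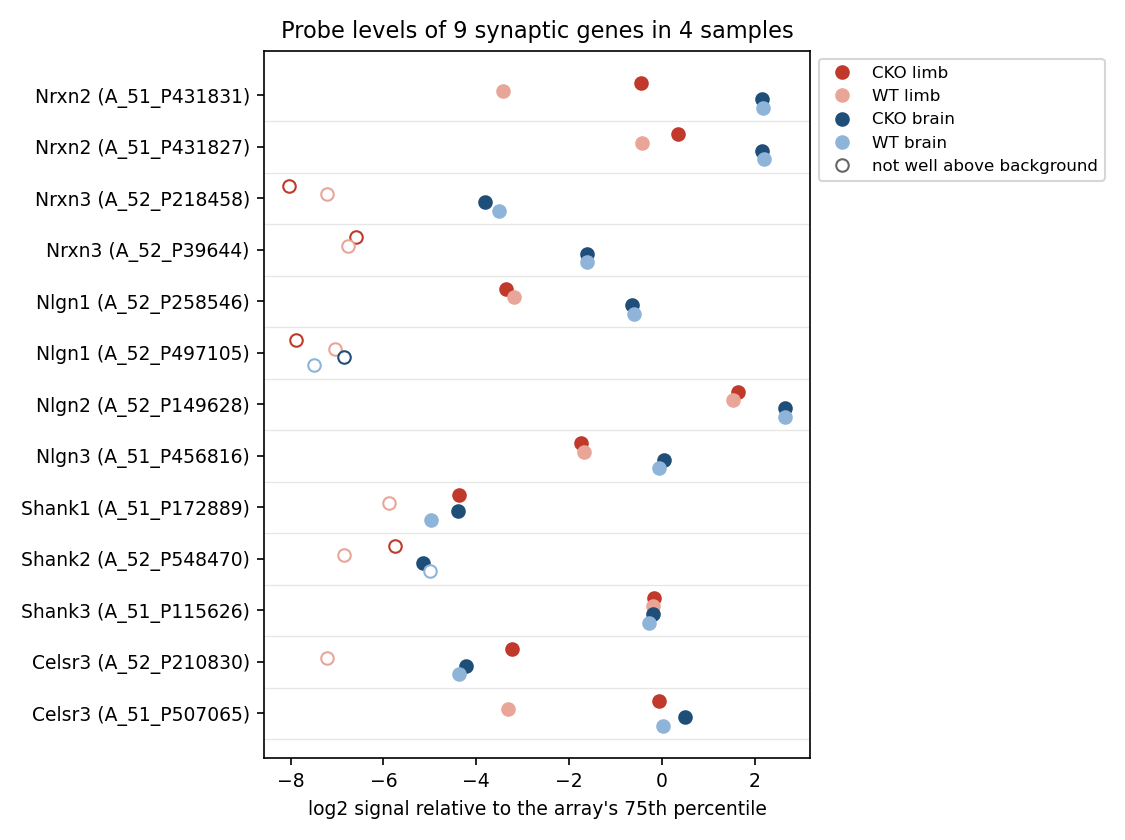
Log2 signal of each of the 13 member probes (rows) in CKO limb, WT limb, CKO brain and WT brain (colours), relative to the array's 75th percentile; 1 array per point, and open circles were not well above background. CKO limb lies apart from WT limb at the Nrxn2 and Celsr3 probes, whereas the neuroligin and Shank3 points pair by tissue or coincide.

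**Figure D2:**
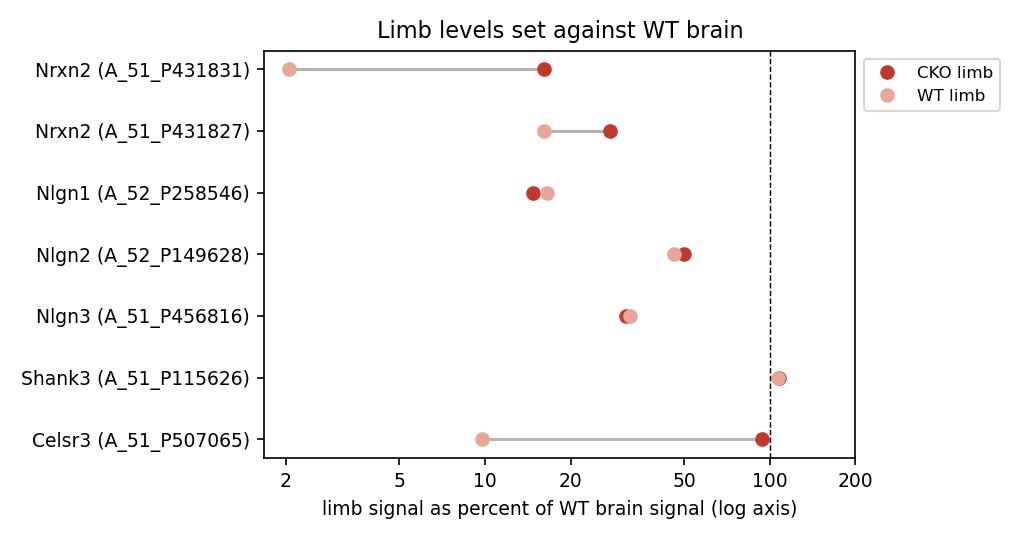
Signal in CKO limb and in WT limb as a percent of WT brain signal (log axis) for the 7 probes detected in all 4 samples. Celsr3 stands at 94.2% in CKO limb and 9.78% in WT limb, and the Nlgn1, Nlgn2, Nlgn3 and Shank3 points of the limbs nearly coincide.

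Counted by the brightest probe of each gene, 1 of the 7 members that could be compared between CKO limb and WT limb was called higher in CKO, Celsr3, and none was called lower. Over 18449 genes, 2.49% were called higher and 2.16% lower. Nrxn2 is not in that count because its brightest probe gave 1.71-fold; with the mean of all probes of a gene the count was 2, Nrxn2 and Celsr3. The other members in limb were Nrxn2, Nlgn1, Nlgn2, Nlgn3, Shank1 and Shank3, while Nrxn3 and Shank2 were not detected in either limb. The median limb difference of the 7 was 0.12, against -0.02 over all genes, whose quartiles were -0.15 and 0.08. Shank1 entered by a bound through CKO limb alone, so it could be called higher but not lower. Over the 6 members measured on both limb arrays the median was 0.07, against -0.04 over all genes measured so. A share of 1 in 7 rests on a single gene and describes Celsr3 more than the set.

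In brain all 9 members entered the comparison, 8 of them above background on both arrays and Shank2 with no fold, and none was called in either direction. Of the 18946 genes compared there, 1.37% were called higher and 1.22% lower in CKO. The members ranged between -0.05 and 0.59, with a median of 0.02 against -0.01 over all genes. Shank1 and Celsr3 were the only 2 members above 0.11. In the same pair of arrays 13 of 15 cartilage markers were called higher in CKO brain. The summed level of that list was 28.3 in CKO brain and 9.41 in WT brain. Only 10 of the 15 were well above background in WT brain, and the others could be called higher but not lower. Of 10 limb mesenchyme markers, 5 were called higher in CKO brain and 1 lower. Sensory neuron markers were called lower in CKO brain for 4 of 17 genes and motor neuron markers for 2 of 7. The sensory list had summed levels of 12.1 in CKO brain and 14.3 in WT brain. Genes of these lists are named here after their values were seen. Scn9a and Chat, both among those called, were not well above background in CKO brain and could be called lower but not higher. Drgx, Slc18a3 and Lhx3 were not well above background in WT brain and could be called higher but not lower. Pan-neuronal markers did not reach 2-fold in brain for any of 22 genes. The part of these differences in the members' values was not tested.

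**Figure D3:**
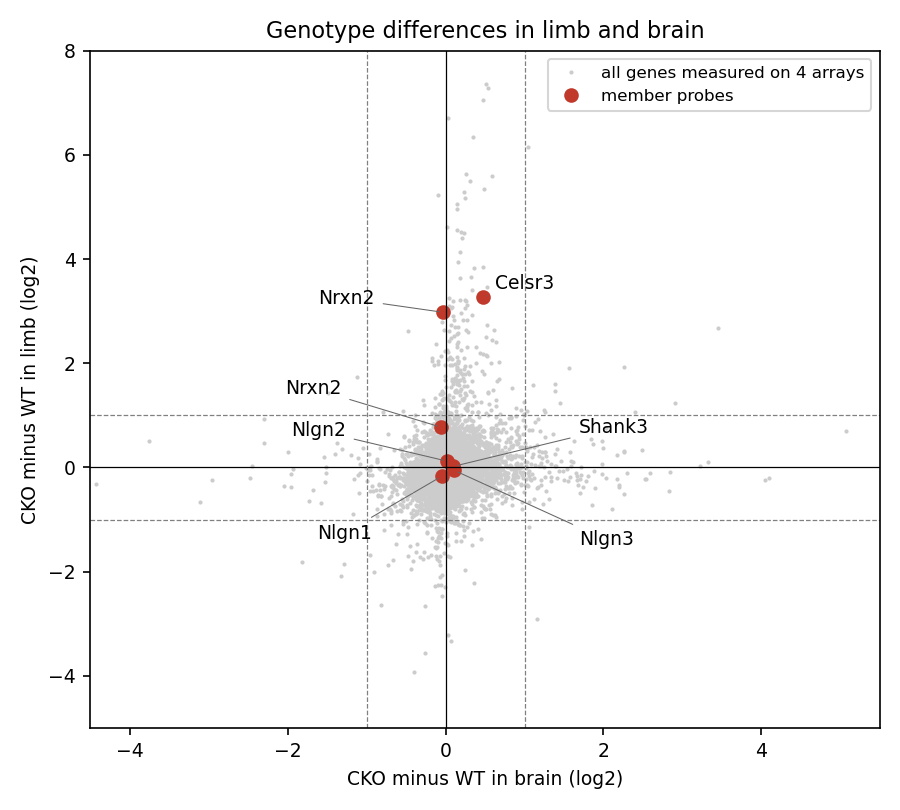
CKO minus WT difference in brain (horizontal) and in limb (vertical), log2, for 15633 genes measured on all 4 arrays (grey; 3 lie outside the axes) and for the member probes (red); dashed lines mark 2-fold. Celsr3 and 1 Nrxn2 probe lie above the limb line, at 3.27 and 2.98, and no member probe passes the brain lines.

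Marker lists give the cell types that could move with the limb values. Pan-neuronal markers were detected for 20 of 22 genes in CKO limb and 17 in WT limb, and 11 of the 20 compared were called higher in CKO limb, with a median of 1.26. Markers seen in CKO limb alone could be called higher but not lower. That list holds genes REST is known to repress, so it does not count neurons independently. Markers of sensory neurons, whose axons enter the limb, summed to 5.85 in CKO limb and 4.45 in WT limb, and 0 of 12 reached 2-fold, with a median of -0.03. Ntrk2, named after its values were seen, gave the largest part of both sums, at 1.82 in CKO limb and 1.16 in WT limb (log2). Of 17 sensory markers on the array, 12 were above background in CKO limb and 10 in WT limb. Motor neuron markers summed to 0.10 in both limbs, and only Isl2 and Slc5a7 of 8 genes were above background. Schwann cell and neural crest markers summed to 23.31 in CKO limb and 24.04 in WT limb, with 0 of 13 reaching 2-fold. Most of both sums came from Pmp22, named after its values were seen, at 3.62 in CKO limb and 3.72 in WT limb (log2). These sums therefore say little of the other markers in the list. Blood markers summed to 322 in CKO limb and 640 in WT limb, and skeletal muscle markers to 381 in CKO limb and 284 in WT limb. Whether the blood or muscle difference moved the members was not tested.

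Setting brain against limb, 5 of the 9 members compared were called higher in CKO brain than in CKO limb, and none was lower. These were Nrxn2, Nrxn3, Nlgn1, Nlgn2 and Nlgn3, of which Nlgn2 is lost under 2 alternative scalings, leaving 4. Of 19704 genes, 15.1% were called higher in CKO brain and 16.9% lower. Between WT brain and WT limb 6 of 8 members were called higher, the same 5 and Celsr3, and none was lower. Of 18436 genes, 15.8% were called higher in WT brain and 18.8% lower. Nrxn3 and Shank2 were not well above background in CKO limb, nor Nrxn3 and Shank1 in WT limb. In those comparisons they could be called higher but not lower. Among members measured on both arrays, 4 of 7 were called higher in CKO brain and 5 of 6 in WT brain. The median brain excess of the members was 1.02 in CKO, or 2.02-fold, and 2.11 in WT, or 4.32-fold, against -0.01 in CKO and -0.00 in WT over all genes. The brain excess of Celsr3 was 1.47-fold in CKO and 10.2-fold in WT. That of Nrxn2 was 3.51-fold in CKO and 6.21-fold in WT at its brighter probe, and 6.09-fold in CKO and 48.9-fold in WT at the other. With normexp the WT values were lower, at 2.59 (log2) for Celsr3 and 4.74 for the second Nrxn2 probe. The CKO and WT medians cover 9 and 8 members, since Shank2 was compared in CKO alone, by a bound of 0.60. Shank1 counts as 0 in WT, where no bound could be given. The gap between these medians is therefore not a like-for-like measure of genotype.

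A fit over all 4 arrays, with genotype and tissue as terms and the genotype-by-tissue residual as its only error, tested the 6 members well above background on every array. For the genotype term limma called 0 of 15628 genes at an adjusted p of 0.05, which is 0% of those tested, although 984 had an unadjusted p under 0.05. The genotype estimate for Celsr3 was 1.87 ± 0.88 (SE; limma, Benjamini-Hochberg adjusted p = 0.66), because limb and brain differ in size and that gap is the error. For the tissue term limma called 32.2% of genes higher in brain and 34.4% lower. Nlgn1 (2.66 ± 0.065, adjusted p = 0.0057), Nlgn3 (1.71 ± 0.074, adjusted p = 0.0061), Nlgn2 (1.07 ± 0.061, adjusted p = 0.0068) and Nrxn2 (2.22 ± 0.26, adjusted p = 0.015) were higher in brain. Celsr3 (1.95 ± 0.88, adjusted p = 0.16) and Shank3 (-0.05 ± 0.059, adjusted p = 0.48) did not pass. With 32.2% of all genes called higher in brain, such a call does not set the 4 members apart.

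Further synapse genes placed the members in context. Of 51 other synaptic adhesion genes compared in limb, 8 were called higher in CKO and 1 lower, with a median of -0.03. In WT limb 44 of the 51 were well above background, and the others could be called higher but not lower. Cadm3, a nectin-like adhesion molecule, read -0.39 in CKO limb and -3.60 in WT limb, 9.24-fold higher. Lrrc4b, a ligand of presynaptic receptor phosphatases, was 3.17-fold higher in CKO limb, and Cbln1, a secreted bridge between neurexins and delta glutamate receptors, was 2.96-fold higher. Lrfn5 was the one lower gene, at -4.44 in CKO limb and -3.08 in WT limb. Further higher genes, named after their values were seen, were Slitrk1 at 1.004 and Cbln4 at 1.26, and by a bound Lrfn1 at 2.67 or more and Nptx2 at 1.496 or more (log2 differences).

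Of 33 postsynaptic scaffold genes 3 were called higher in CKO limb and none lower, with a median of -0.01. Iqsec3, an exchange factor of inhibitory synapses that binds gephyrin, read 1.26 in CKO limb and -4.33 in WT limb, 48.2-fold higher, and 2.36 in CKO brain and 1.78 in WT brain. Dlgap3, which binds Shank proteins and PSD-95, read 1.70 in CKO limb and -1.70 in WT limb, 10.6-fold higher. The other Dlgap genes, of the same family, were not called: the limb differences were 0.59 for Dlgap1, -0.11 for Dlgap2 and 0.12 for Dlgap4, named here after their values were seen. Arc, an immediate early gene product of dendrites, was 4.004-fold higher.

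Of 21 presynaptic scaffold genes 6 were called higher in CKO limb and none lower, with a median of 0.11. Only 14 of the 21 were well above background in WT limb. The others entered through CKO limb alone, so they could be called higher but not lower. Ppfia3, a liprin that organizes the active zone, was 2.02-fold higher. The remaining 5 were Bsn, Pclo, Rims2, Rimbp2 and Unc13a, named after their values were seen: each was well above background in CKO limb and not in WT limb, with bounds of at least 2.58 to 4.83 on the log2 scale. In brain none of 54 adhesion, 34 postsynaptic or 22 presynaptic genes reached 2-fold. The shares in limb stand beside 2.49% of all genes, and these lists were chosen with earlier results known.

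**Figure D4:**
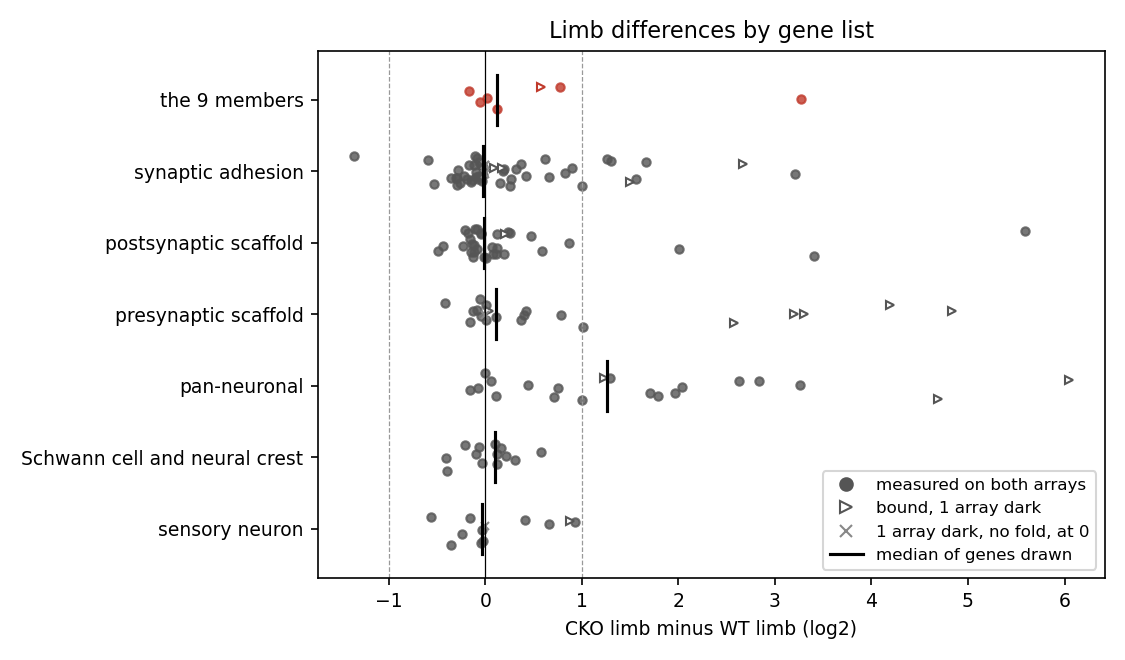
CKO limb minus WT limb difference, log2, of each gene of 7 lists (rows); filled points were measured on both arrays, triangles are lower bounds with WT limb not above background, a cross at 0 has no bound, and the vertical bar is the median. Most synapse genes sit near 0, and a tail reaches 5.59 in the postsynaptic list and 4.83 in the presynaptic list.

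The pattern of each member over the 4 samples was set against the other genes detected on all arrays that have a current symbol (RIKEN names left out), by the distance between log2 values centred on each gene's mean, over 13172 candidates. Gpr19, an orphan receptor, was nearest to Celsr3 at a distance of 0.28, and Pnma2 followed at 0.45; only 3 genes lay within 0.5. Gpr19 was 2.92 higher in CKO limb than in WT limb on the log2 scale and 0.33 higher in CKO brain against WT brain. For Nrxn2 the nearest were Ppargc1a and Stk32c, with 132 genes within 0.5. Nlgn2 lay nearest to Nsf, a factor of vesicle fusion, at 0.01, and then to Lbh, with 1777 genes within 0.5. Nlgn1 lay nearest to Tspan13 and Unc13b, with 231 genes within 0.5. Nlgn3 lay nearest to Lcorl and Rtl8c, with 674 genes within 0.5, and Shank3 to Nipa2 and Tmem203. Over 4 samples the flat pattern of Shank3 was shared by 5685 genes within 0.5. The neighbours of Shank3 and of the neuroligins therefore carry little information.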

How the data were processed

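Total RNA of 4 samples was hybridised to Agilent 1-colour arrays, 1 array per group, all on 1 slide. Spots were quantified with Feature Extraction 9.5.3.1 (Agilent) according to the submitters' processing notes. The deposited scanner files hold intensities on a linear scale that, per the file headers, were background-subtracted and detrended within each array and not normalized between arrays. Agreement with the deposited value table was within 0.0071 log2 over 45018 spots. From these, log2 signals were scaled to each array's 75th percentile (signals of 928 in CKO limb, 777 in WT limb, 1002 in CKO brain and 900.5 in WT brain), control spots were dropped, and spots of a probe were averaged (Python 3.11.15). Probes were renamed to current symbols through a RefSeq table. No depth applies to arrays; their number limits the precision.

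Genes stand for their brightest probe (by the mean over arrays) and were compared where at least 1 array was well above background. Where 1 array was not, a bound was computed: the bright array's level against the dim array's lowest signal among probes well above background, or the dim probe's own if higher, and it is written "at least". A bound of the opposite sign counts as 0. Technical SDs come from the 245 probes printed 10 times per array. Depending on the comparison, 159 to 183 of them were well above background on both arrays and were used. Each technical SD is the median over the third of those probes that matches in level. The 4-array fit used limma 3.58.1 (R 4.3.3) with Benjamini-Hochberg adjustment and was tested on simulated data. Alternatives were normexp with an offset of 50, quantile normalization, the percentile over detected probes, the mean of a gene's probes, detection on both arrays, the deposited value table and an intensity-dependent prior. Named genes are all members, Rest, up to 4 further synapse genes per list and direction in limb (2-fold or more on both arrays, largest first) and up to 2 in brain, and the 2 genes nearest to each member. A gene that this rule names is not reported here. The members and gene lists were chosen with earlier results of these data known. Promoter sequences are from RefSeq (GRCm38.p6), with entries for 5 of the 9 members; probe positions are mm9.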

Additional observations from a re-analysis of the deposited data

Results flagged for a closer look

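At 3 member probes the CKO minus WT difference had opposite signs in limb and in brain. With 1 array per group the gap between the tissues was not tested. At Nrxn2 probe A_51_P431831 the limb difference of 2.98 exceeded the brain difference of -0.03 by 3.004, and at Nrxn2 probe A_51_P431827 the limb difference of 0.77 exceeded the brain difference of -0.05 by 0.82. The brain values lie within the technical SD of 0.063, so their sign carries no weight. For Nlgn3 the limb difference of -0.06 and the brain difference of 0.11 stand -0.16 apart, with technical SDs of 0.13 in limb and 0.079 in brain. No group had enough samples for a single sample to be set apart from the others.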

How the results depend on the processing

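No difference of a member probe that was called changed sign under the alternatives run. With the mean of all probes, 2 members (Nrxn2 and Celsr3) were at least 2-fold higher in CKO limb, and the median brain excess of members in WT was 1.37. With normexp that median was 1.56, and over all genes 286 were at least 2-fold higher in CKO limb and 87 in CKO brain. The count of members higher in CKO brain than in CKO limb was 4, without Nlgn2, under quantile normalization and under the percentile over detected probes, and 4, without Nrxn3, when detection on both arrays was required. That requirement left 261 genes higher in CKO limb and 150 in CKO brain, since genes called by a bound drop out. Of 54 values of single probes and genes, normexp moved 20 and left 33 in place, and could not give the remaining one; quantile normalization moved 3, with 0 moved by more than the technical spread under the percentile over detected probes or the deposited value table. limma called 0 genes for genotype under every alternative run, with 947 to 1498 at an unadjusted p under 0.05. No paired analysis was possible because each group has 1 array. Leaving out an array leaves no residual degree of freedom, so no such fit was tested.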
